A study of Mus musculus with 503 samples.

Results

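The transcripts of 8 secreted factors that act on blood vessels, *Vegfa*, *Vegfb*, *Vegfc*, *Pgf*, *Angpt1*, *Angpt2*, *Angptl4* and *Hgf*, were followed in single perivascular cells of the mouse spinal cord before and after injury. They were taken from the table by symbol, and all 8 were present among its 56701 gene rows.

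The mice carried *GLAST-CreERT2*, *R26R-tdTomato* and *Pdgfrb-eGFP*, so that after tamoxifen EGFP marked PDGFRβ-expressing cells and tdTomato marked cells in which the GLAST-driven Cre had been active, together with their progeny. The labels give the animals as female, whereas the study's methods name both sexes for sequencing and an age over 8 weeks. The animals were either uninjured or 3 days after a complete crush of the cord (the labels give 3 days, the design text of the series another day), and their cells were sorted as tdTomato+EGFP+ or tdTomato-EGFP+ into wells for Smart-seq3, a full-length single-cell RNA-seq method. The labels covered 503 cells. After filters on genes, mitochondrial counts and markers of other cells 468 remained. The uninjured plates 209 and 213 gave 65 and 72 tdTomato+EGFP+ cells and 46 and 60 tdTomato-EGFP+ cells, and the injured plates 211 and 215 gave 88 and 34 tdTomato+EGFP+ cells and 58 and 45 tdTomato-EGFP+ cells.

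No label names an animal, so each group is 1 sample and no difference between groups could be tested. Both sorts shared each plate but injured and uninjured cells did not, so that injury and plate cannot be told apart. Counts were summed per group (25645409 to 38406035 counts) and given as counts per 1000000 (CPM), with 95% exact Poisson intervals that cover counting error only. Plate values are given as the spread between wells processed apart. Plate 215 contributed 1677209 of the counts of the injured tdTomato+EGFP+ cells and plate 211 gave 29456220. Fewer expressing cells and less RNA per cell cannot be told apart in these sums, and shares of cells with a count are therefore given beside them.

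The sorts followed their labels. *Slc1a3*, which encodes GLAST, was at 211.5 and 206.5 CPM in tdTomato+EGFP+ cells before and after injury, against 31.5 and 10.7 CPM in the other sort. *Pdgfrb* lay between 1213 and 2491 CPM in all 4 groups. The summed level of 6 endothelial markers was 4885 and 5099 CPM in the uninjured tdTomato+EGFP+ and tdTomato-EGFP+ cells, against 485 and 2117 CPM after injury, and none of the 6 was at 0 in any group. The 9 pericyte markers summed to 11669 and 12838 CPM in the same order before injury, to 776 CPM in tdTomato+EGFP+ cells after injury and to 11606 CPM in tdTomato-EGFP+ cells after injury. The 9 perivascular fibroblast markers summed to 4382 and 2339 CPM in the uninjured sorts and to 22150 and 9885 CPM in the injured ones. The part of these marker differences in any group difference below was not tested.

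Vascular endothelial growth factors are dimeric ligands that drive the growth and permeability of vessels. *Vegfa* acts through the receptor tyrosine kinases VEGFR1 and VEGFR2, encoded by *Flt1* and *Kdr*, while *Vegfb* and *Pgf* bind VEGFR1 and *Vegfc* binds VEGFR3, encoded by *Flt4*. Angiopoietin 1 stabilises vessels through the endothelial receptor TIE2, encoded by *Tek*, and angiopoietin 2 can oppose it. *Angptl4* encodes a secreted inhibitor of lipoprotein lipase, and *Hgf* encodes the ligand of the MET receptor. Mural cells and fibroblasts are known sources of such factors for the endothelium they lie on.

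A difference was counted as past 2-fold when it reached 1 on the log2(CPM + 1) scale, had the same sign on each plate (for sorts) or in each of the 4 ways to set an injured against an uninjured plate, called plate pairs (for injury), and the higher group had at least 10 CPM. Of the 8 factors 7 reached this level between the uninjured sorts, 5 between the injured sorts, 5 for injury in tdTomato+EGFP+ cells, 7 for injury in tdTomato-EGFP+ cells and 7 for the comparison of both injury differences, and *Hgf* never did. In uninjured cord none of the 8 factors passed in either direction between the sorts, where 4.31% of 11198 genes were higher and 3.61% lower in tdTomato+EGFP+ cells. After injury *Pgf* was lower in tdTomato+EGFP+ than in tdTomato-EGFP+ cells, against 17.9% of 10631 genes that were lower and 4.31% that were higher. Between injured and uninjured tdTomato+EGFP+ cells, 3 factors were higher (*Vegfa*, *Angpt2* and *Angptl4*, background 10.8% of 11429 genes) and *Pgf* was lower (background 34.3%). In tdTomato-EGFP+ cells *Vegfa* and *Angptl4* were higher after injury (background 9.52% of 11434 genes) and *Vegfc* was lower (background 17%). The injury differences of the sorts differed from each other past 2-fold for *Vegfc*, upward in tdTomato+EGFP+ relative to tdTomato-EGFP+ cells (background 4.57% of 12081 genes), and for *Pgf*, downward (background 20.6%).

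The scale on which all genes were set mattered for these counts. The median log2 difference over all genes tested was -0.59 for injury in tdTomato+EGFP+ cells, -0.20 for injury in tdTomato-EGFP+ cells, -0.32 between the injured sorts and 0.01 between the uninjured sorts. TMM scaling moved these medians by 0.65, 0.28, 0.37 and -0.01, and DESeq2 size factors by 0.79, 0.24, 0.51 and -0.04. Of the genes past 2-fold for injury in tdTomato+EGFP+ cells, 24% were higher on the CPM scale, 52.5% with TMM and 59.2% with DESeq2 size factors. The same shares were 35.9%, 56.4% and 52.9% for injury in tdTomato-EGFP+ cells, and 19.4%, 43.1% and 55.02% between the injured sorts. For the difference between the injury differences they were 18.2%, 39.2% and 52.2%, where the median of -0.39 moved by 0.37 and 0.55. The injury calls named above for *Vegfa*, *Angpt2*, *Angptl4*, *Pgf* and *Vegfc* were made on all 3 scales.

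**Figure D1:**
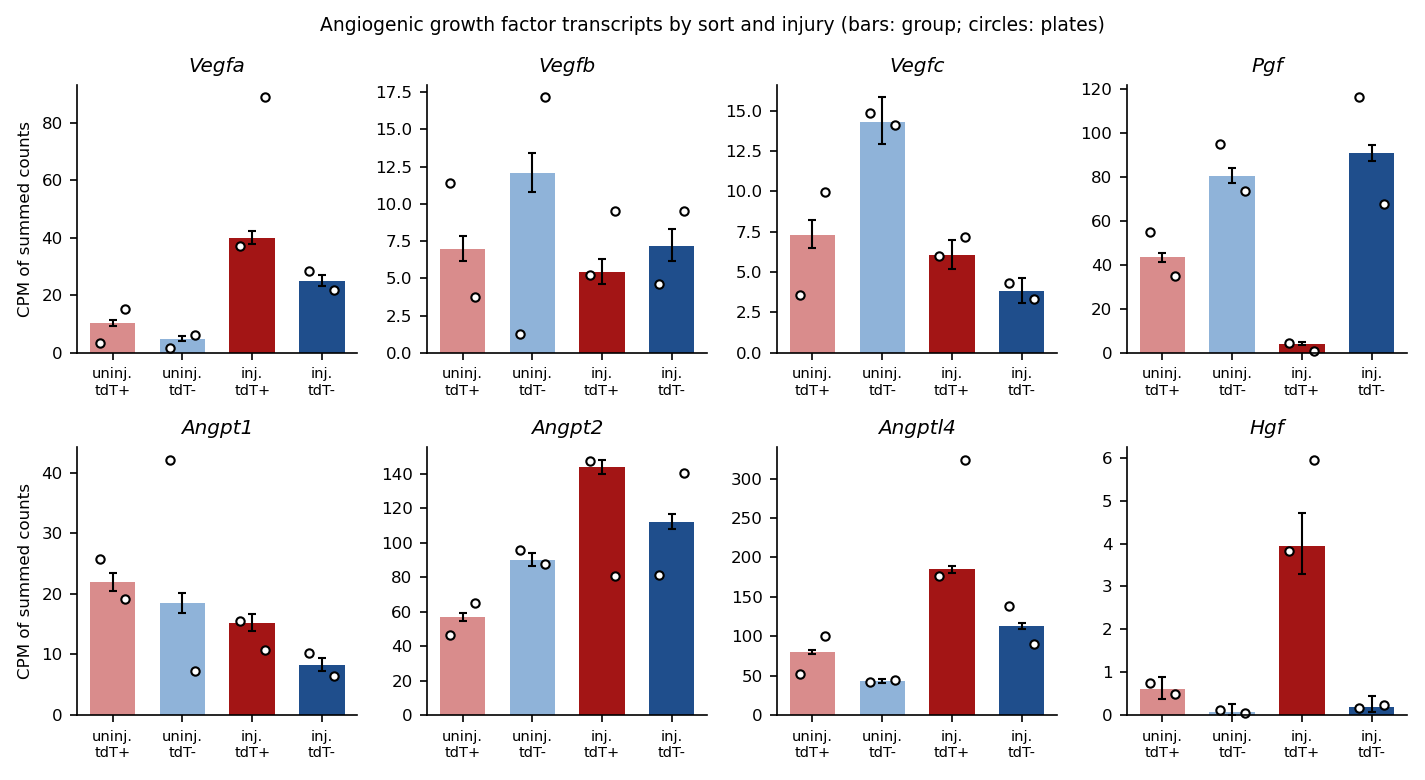
Level of each factor in CPM (vertical axes, linear and from 0, a different range for each gene) in uninjured (uninj.) and injured (inj.) tdTomato+EGFP+ (tdT+) and tdTomato-EGFP+ (tdT-) cells. Bars are group sums with 95% exact Poisson intervals and open circles the 2 plates of the group, with *Pgf* at 4.14 CPM in injured tdTomato+EGFP+ and 90.6 CPM in injured tdTomato-EGFP+ cells.

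*Vegfa*, on chromosome 17 (46016993 to 46032377, RefSeq, GRCm38.p6), stood before injury at 10.3 CPM (9.32 to 11.4) in tdTomato+EGFP+ cells, with 4.83 CPM (4.04 to 5.74) in tdTomato-EGFP+ cells. After injury these levels were 40.02 CPM (37.8 to 42.3) and 25.03 CPM (23.1 to 27.05). Plate values were 3.48 and 15.2, 1.74 and 6.30, 37.2 and 88.8, and 28.5 and 21.9 CPM in the same order. The injured plates lay above the uninjured plates in both sorts with no overlap. The log2 difference with injury was 1.86 in tdTomato+EGFP+ cells (plate pairs 1.24 to 4.32) and 2.16 in tdTomato-EGFP+ cells (1.65 to 3.43). The 2 injury differences themselves differed by -0.30, with 2 of 4 plate pairs on either side of 0. Between the injured sorts the log2 difference was 0.66 on the CPM scale, 1.03 with TMM and 1.17 with DESeq2 size factors.

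To compare shares of cells at the same depth, each cell with at least 20000 counts was thinned to 20000, which left out 10 and 14 uninjured cells of the tdTomato+EGFP+ and tdTomato-EGFP+ sorts and 22 and 1 injured cells. Of the injured tdTomato+EGFP+ cells kept at that depth 87 were of plate 211 and 13 of plate 215. At 20000 counts 7.09% (95% exact binomial interval 3.29% to 13.03%) and 3.26% (0.68% to 9.23%) of the uninjured cells had a *Vegfa* count, against 38 of 100 (28.5% to 48.3%) and 14.7% (8.47% to 23.1%) of the injured cells. Without thinning the shares were 13.9%, 8.49%, 66.4% and 34.95%. In the uninjured groups few cells carried the level, since 1 cell held 37.1% of all *Vegfa* counts of the tdTomato+EGFP+ group and 41.5% of those of the tdTomato-EGFP+ group. In the injured groups 1 cell held 6.74% and 28.3% of the *Vegfa* counts in the same order. Leaving out the highest cell of each group left the injury differences at 2.34 and 2.30.

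The cells were grouped by clustering from which the 8 factors and the listed pathway genes had been held out, which gave 7 clusters. In cluster 3 all 9 perivascular fibroblast markers were raised and it is called perivascular fibroblast-like, clusters 4 and 6 were pericyte-like (7 and 9 of 9) and cluster 7 was vascular smooth muscle cell-like (5 of 6). None of the 6 endothelial markers was raised in cluster 6, but they summed to 3258 CPM there, against 458 CPM in cluster 4. In cluster 4 also 3 of 5 myofibroblast markers were raised. Clusters 2 and 5 were left unnamed because pericyte markers (9 and 4 of 9) and all 6 endothelial markers were raised together. Cluster 1, with cycling (6 of 6), myofibroblast (5 of 5) and fibroblast genes (6 of 9), was also left unnamed and held 81.97% of the injured tdTomato+EGFP+ cells. Of its 19 uninjured cells, 9 of 10 tdTomato+EGFP+ and 8 of 9 tdTomato-EGFP+ cells had under 20000 counts (medians 2488.5 and 1923), and levels in these 19 cells are not read as those of a cell kind.

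Among uninjured tdTomato+EGFP+ cells *Vegfa* counts lay mostly in the fibroblast-like cells. Cluster 3 gave 85.4% of the *Vegfa* counts of the uninjured tdTomato+EGFP+ cells while holding 18.98% of these cells. Its level there was 38.3 CPM, with a count in 12 of 26 cells, of which 1 held 43.5% of the counts. In uninjured tdTomato-EGFP+ cells 41.5% of the counts came from 1 cell of cluster 3 and 33.8% from 1 cell of cluster 1. In cluster 2, with both pericyte and endothelial markers raised, *Vegfa* was at 0.26 CPM (3 of 63 cells) in tdTomato+EGFP+ cells. It was at 0.82 CPM (4 of 51 cells) in tdTomato-EGFP+ cells there, and in pericyte-like cluster 6 at 0.66 and 0.28 CPM with 1 cell each. The pericyte-like cluster 4 was made of 47 injured tdTomato-EGFP+ cells and 1 injured tdTomato+EGFP+ cell. It had *Vegfa* at 43.01 CPM in the tdTomato-EGFP+ cells, with a count in 13 of 47, of which 1 held 38.2% of the counts. This cluster held 74.1% of the *Vegfa* counts of the injured tdTomato-EGFP+ group. Cluster 1 had 43.6 CPM in injured tdTomato+EGFP+ cells, with a count in 70 of 100.

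Within the fibroblast-like cluster 3 the summed *Vegfa* level was not higher after injury. It was 20.7 against 38.3 CPM in injured and uninjured tdTomato+EGFP+ cells (9 of 18 and 12 of 26 cells with a count). In tdTomato-EGFP+ cells it was 22.7 against 26.4 CPM (13 of 19 and 1 of 8 cells). The highest cell held 29.3%, 43.5%, 45.6% and 100% of the counts in this order. The share of tdTomato-EGFP+ cells with a count went the other way, at 68.4% after and 12.5% before injury. When cells with over 1000 CPM of the endothelial markers were left out, 33 and 29 uninjured cells remained, and *Vegfa* stood at 35.9 and 19.9 CPM in them against 41.1 and 32.4 CPM in the injured cells. The injury differences were then 0.19 and 0.68 and no longer past 2-fold.

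A listed start of *Vegfa* is shown because it was higher after injury in both sorts, and that of *Pgf* because it differed most between the injured sorts. RefSeq promoter windows were available for 5 of the 8 factors (*Vegfa*, *Vegfb*, *Vegfc*, *Pgf* and *Hgf*). The 250 bases before the first start that the table lists are given 5′ to 3′ on the minus strand (GRCm38.p6), *Vegfa* at chr17:46032378-46032627 and *Pgf* at chr12:85177314-85177563. The *Vegfa* window lies directly outside the span of its gene. The *Pgf* window lies inside its gene (85166637 to 85177785), before an internal start, and is not sequence upstream of the whole gene. Capitals mark matches, on either strand, to the core hypoxia-inducible factor motif (ACGTG or GCGTG) and to the GC box (GGGCGG).
Vegfa: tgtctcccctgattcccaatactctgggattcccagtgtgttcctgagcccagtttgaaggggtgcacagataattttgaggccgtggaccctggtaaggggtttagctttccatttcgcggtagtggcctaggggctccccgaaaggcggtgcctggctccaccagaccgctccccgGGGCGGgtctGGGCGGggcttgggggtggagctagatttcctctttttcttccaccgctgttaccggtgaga
Pgf: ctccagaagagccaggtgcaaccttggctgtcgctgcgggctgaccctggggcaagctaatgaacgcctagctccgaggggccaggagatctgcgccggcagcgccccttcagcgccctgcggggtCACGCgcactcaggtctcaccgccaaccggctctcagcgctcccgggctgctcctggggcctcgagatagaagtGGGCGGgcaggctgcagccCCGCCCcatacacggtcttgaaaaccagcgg
The *Vegfa* window held 2 GC boxes and no core motif, and the *Pgf* window 2 GC boxes and 1 core motif. Over 32851 windows of the same length, 38.6% held the core motif and 32.7% the GC box. A 2nd annotated start of *Vegfa* had 2 core matches in its window and a 2nd start of *Pgf* had none.

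**Figure D2:**
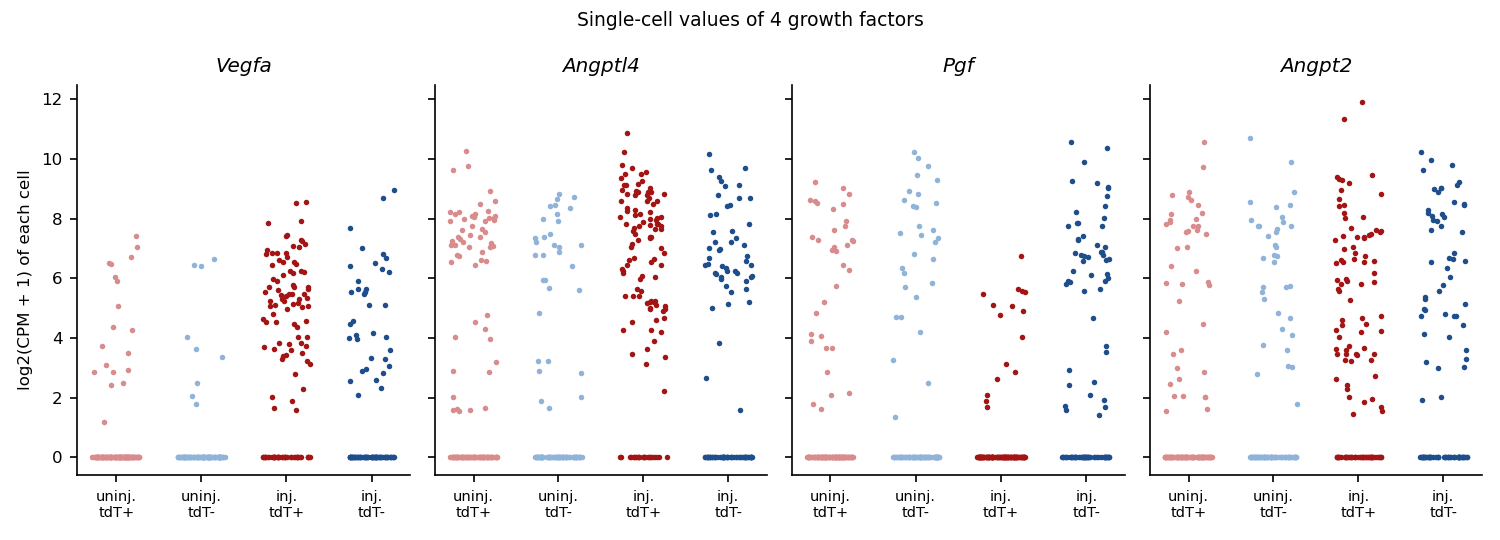
Value of each cell as log2(CPM + 1) (vertical axis) for *Vegfa*, *Angptl4*, *Pgf* and *Angpt2* in the 4 groups, uninjured (uninj.) or injured (inj.), tdTomato+EGFP+ (tdT+) or tdTomato-EGFP+ (tdT-). Each point is 1 cell, scattered sideways, and points at 0 are cells without a count, and *Vegfa* had a count in 13.9% of uninjured and 66.4% of injured tdTomato+EGFP+ cells.

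*Pgf*, which encodes placental growth factor and lies on chromosome 12 (85166637 to 85177785), differed most between the injured sorts. Its level before injury was 43.3 CPM (41.3 to 45.5) in tdTomato+EGFP+ and 80.3 CPM (76.98 to 83.8) in tdTomato-EGFP+ cells, and after injury 90.6 CPM (86.97 to 94.4) in tdTomato-EGFP+ cells. In injured tdTomato+EGFP+ cells it was at 4.14 CPM (3.46 to 4.92). The plates gave 55.05 and 34.9, 95.1 and 73.4, 116.1 and 67.5, and for the injured tdTomato+EGFP+ cells 4.35 and 0.60 CPM, the last of which is 1 count. Each plate of the last group lay below every plate of the other groups. The log2 difference with injury was -3.11 in tdTomato+EGFP+ cells (plate pairs -5.13 to -2.75) and 0.17 in tdTomato-EGFP+ cells (-0.49 to 0.66), and the difference between these was -3.28 (-4.65 to -3.40). Between the injured sorts it was -4.15 (-4.45 and -5.42 by plate).

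At 20000 counts per cell 17.3% (11.2% to 25.04%) and 22.8% (14.7% to 32.8%) of the uninjured tdTomato+EGFP+ and tdTomato-EGFP+ cells had a *Pgf* count. After injury it was 8 of 100 tdTomato+EGFP+ cells (3.52% to 15.2%) and 32.4% (23.4% to 42.3%) of the tdTomato-EGFP+ cells. At full depth the shares were 24.8%, 28.3%, 13.1% and 50.5%.

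By cell kind *Pgf* was highest in the smooth muscle cell-like cluster 7, at 350.4 CPM (333.5 to 367.9) with a count in 18 of 18 cells. The 14 uninjured tdTomato-EGFP+ cells of that cluster held 65.7% of the *Pgf* counts of their group. Cluster 5, with pericyte and endothelial markers, had 134.8 CPM and gave 65.4% of the *Pgf* counts of uninjured tdTomato+EGFP+ cells. In the injured tdTomato-EGFP+ group the pericyte-like cluster 4 was at 80.1 CPM (21 of 47 cells), cluster 5 at 148.5 CPM (9 of 12 cells) and the fibroblast-like cluster 3 at 157.9 CPM (8 of 19 cells, of which 1 held 47.1% of the counts). Cluster 1 was at 2.02 CPM in injured tdTomato+EGFP+ cells (12 of 100) and at 18.8 CPM in injured tdTomato-EGFP+ cells (9 of 17, of which 1 held 66.3% of the counts).

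The fibroblast-like cells were also compared by sort. In cluster 3 *Pgf* was at 19.9 CPM (4 of 26 cells) and 17.1 CPM (4 of 18) in uninjured and injured tdTomato+EGFP+ cells, and at 91.8 CPM (3 of 8) and 157.9 CPM (8 of 19) in tdTomato-EGFP+ cells. In these the 1 highest cell held 49.4%, 51.3%, 89.9% and 47.1% of the counts. In injured tdTomato+EGFP+ cells 9 of 9 pericyte markers were lower as well, both than in uninjured tdTomato+EGFP+ and than in injured tdTomato-EGFP+ cells, and their part in the *Pgf* difference was not tested. With endothelial-marker cells left out, the injury difference of *Pgf* was -2.10 in tdTomato+EGFP+ and -1.58 in tdTomato-EGFP+ cells, the difference between the injury differences was -0.52, and *Pgf* in the uninjured sorts was at 21.1 and 273.9 CPM.

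*Vegfc*, a ligand for lymphatic and venous endothelium on chromosome 8 (54077532 to 54186454), was at 7.29 CPM (6.46 to 8.20) and 14.3 CPM (12.9 to 15.8) in uninjured tdTomato+EGFP+ and tdTomato-EGFP+ cells. After injury the levels were 6.04 CPM (5.21 to 6.97) and 3.82 CPM (3.10 to 4.66). The plates gave 3.61 and 9.94, 14.8 and 14.1, 5.97 and 7.15, and 4.34 and 3.35 CPM. The uninjured tdTomato-EGFP+ plates lay above all others. The injury difference in tdTomato-EGFP+ cells was -1.67 (plate pairs -1.86 to -1.50), and in tdTomato+EGFP+ cells it was -0.24 with pairs on both sides of 0 (-0.65 to 0.82). The difference between them was 1.43 (0.85 to 2.69).

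The *Vegfc* level of the uninjured cord rested on few cells. A count was found in 7 uninjured tdTomato-EGFP+ cells (6.60%), and 1 of them held 48.8% of all counts. Without each group's highest cell the injury difference in tdTomato-EGFP+ cells was -1.05 and the higher group fell under 10 CPM. Cluster 5, in which the 6 endothelial markers summed to 8078 CPM, held 96.9% of the *Vegfc* counts of uninjured tdTomato-EGFP+ and 85% of those of uninjured tdTomato+EGFP+ cells. Its level in that cluster was 52.4 CPM with a count in 19 of 44 cells, against 0 of 48 cells in pericyte-like cluster 4, which by a floor of 3 cells allows a share of up to 6.25% of cells with a count. With endothelial-marker cells left out *Vegfc* was at 0.17 and 2.70 CPM in uninjured and injured tdTomato-EGFP+ cells, and the sign of the injury difference turned to 1.66. In the injured tdTomato+EGFP+ group, where the endothelial markers were at their lowest, 98.4% of the *Vegfc* counts lay in cluster 1. There a count was found in 31 of 100 cells at a level of 7.05 CPM.

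*Vegfb*, on chromosome 19 (6982472 to 6987651), was low in each group. Levels were 6.95 CPM (6.14 to 7.84) and 12.1 CPM (10.8 to 13.4) in the uninjured sorts and 5.43 CPM (4.64 to 6.31) and 7.17 CPM (6.18 to 8.29) in the injured sorts. The uninjured tdTomato-EGFP+ plates gave 1.27 and 17.1 CPM, a wider spread than that between any 2 groups. The 4 groups overlapped by plate, and no comparison passed 2-fold. Thinned shares were 6.30%, 8.70%, 14% and 9.80% with overlapping intervals (2.76% to 12.03%, 3.83% to 16.4%, 7.87% to 22.4% and 4.80% to 17.3%).

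*Angpt2*, on chromosome 8 (18690263 to 18741562), was at 57.02 CPM (54.7 to 59.5) and 90.3 CPM (86.7 to 93.9) in uninjured tdTomato+EGFP+ and tdTomato-EGFP+ cells and at 144.03 CPM (139.8 to 148.3) and 112.3 CPM (108.2 to 116.5) after injury. By plate it was 46.3 and 64.8, 95.5 and 87.8, 147.6 and 80.5, and 81.1 and 140.7 CPM. The tdTomato+EGFP+ plates did not overlap before and after injury, whereas the tdTomato-EGFP+ plates did. The injury difference was 1.32 in tdTomato+EGFP+ cells (plate pairs 0.31 to 1.65) and 0.31 in tdTomato-EGFP+ cells (-0.23 to 0.67). The difference between these, 1.01, was positive in 3 of 4 plate pairs and so did not pass.

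The *Angpt2* level of injured tdTomato+EGFP+ cells leaned on single cells, of which 1 held 31.1% of the counts and reached 3813 CPM. Without each group's highest cell the injury difference was 1.00, and without plate 211 it was 0.49 and under 2-fold. With endothelial-marker cells left out *Angpt2* went from 24.8 to 147.9 CPM in tdTomato+EGFP+ cells (2.53) and from 48.9 to 128.8 CPM in tdTomato-EGFP+ cells (1.38), past 2-fold in both. The thinned shares of cells with an *Angpt2* count were 24.4% (17.2% to 32.8%) and 30.4% (21.3% to 40.9%) before injury and 41 of 100 (31.3% to 51.3%) and 34.3% (25.2% to 44.4%) after it. Among the cell kinds *Angpt2* was found widely, at 114.6 CPM in cluster 1, 88.7 in cluster 2, 120.7 and 126.4 in the pericyte-like clusters 4 and 6 and 177.3 in the smooth muscle cell-like cluster 7, where 1 of 18 cells held 54.5% of the counts. In fibroblast-like cluster 3 the level of 336.5 CPM in injured tdTomato+EGFP+ cells came to 93.1% from 1 cell of 18.

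*Angpt1*, on chromosome 15 (42424667 to 42676977), passed in no comparison. Its levels were 21.9 CPM (20.4 to 23.4) and 18.4 CPM (16.9 to 20.1) before injury and 15.2 CPM (13.9 to 16.7) and 8.27 CPM (7.19 to 9.46) after injury in tdTomato+EGFP+ and tdTomato-EGFP+ cells. By plate the values were 25.8 and 19.1, 42.1 and 7.23, 15.5 and 10.7, and 10.2 and 6.47 CPM, so that the tdTomato+EGFP+ plates were lower after injury with no overlap and the tdTomato-EGFP+ plates overlapped. The injury differences were -0.50 (plate pairs -1.19 to -0.28) and -1.07 (-2.53 to 0.45). The first of these turned to 0.15 with TMM and 0.28 with DESeq2 size factors. With endothelial-marker cells left out it was -1.42 and past 2-fold. Between the injured sorts the difference was 0.81 on the CPM scale and 1.17 and 1.31 on these 2 scales. The smooth muscle cell-like cluster 7 had *Angpt1* at 131.04 CPM (13 of 18 cells), fibroblast-like cluster 3 at 28.9 CPM (23 of 71) and cluster 5 at 25.7 CPM (16 of 44), while clusters 2 and 6 were at 1.89 CPM (6 cells) and 0.29 CPM (1 cell).

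*Angptl4*, on chromosome 17 (33774900 to 33781575), was at 80.01 CPM (77.2 to 82.9) and 43.3 CPM (40.8 to 45.9) in uninjured tdTomato+EGFP+ and tdTomato-EGFP+ cells. After injury the levels were 184.9 CPM (180.2 to 189.8) and 112.8 CPM (108.7 to 116.995). Plate values were 51.9 and 100.3, 41.5 and 44.2, 177.0 and 324.3, and 137.9 and 90.1 CPM. In both sorts the injured plates lay above the uninjured ones without overlap. The injury difference was 1.20 (plate pairs 0.81 to 2.62) and 1.36 (1.01 to 1.71), and these differed by -0.16 with 3 of 4 plate pairs above 0. Without plate 209 the value in tdTomato+EGFP+ cells was 0.88, which is under 2-fold. With endothelial-marker cells left out the levels before and after injury were 83.5 and 190.2 CPM in tdTomato+EGFP+ cells (1.18) and 14.5 and 130.7 CPM in tdTomato-EGFP+ cells (3.09), and the injury differences then differed by -1.91.

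Over whole groups the share of cells moved with the level. After thinning, 35.4% (27.2% to 44.4%) of the uninjured tdTomato+EGFP+ and 23 of 92 (16.6% to 35.1%) of the uninjured tdTomato-EGFP+ cells had an *Angptl4* count, against 74 of 100 (64.3% to 82.3%) and 42.2% (32.4% to 52.3%) after injury. No cell held more than 20.4% of a group's *Angptl4* counts. In cluster 1 *Angptl4* was at 213.8 CPM in injured tdTomato+EGFP+ cells (83 of 100 with a count) and at 253.7 CPM in injured tdTomato-EGFP+ cells (12 of 17, of which 1 held 42.7% of the counts). In cluster 2, with both pericyte and endothelial markers raised, *Angptl4* was at 99.4 and 70.4 CPM in uninjured tdTomato+EGFP+ and tdTomato-EGFP+ cells. This cluster held 61.4% and 88.7% of the *Angptl4* counts of these 2 groups. The level was 8.91 CPM in pericyte-like cluster 6 and 89.7 CPM in the injured cells of pericyte-like cluster 4. In fibroblast-like cluster 3 it was at 65.7 and 28.7 CPM in tdTomato+EGFP+ cells before and after injury, against 18.1 and 85.1 CPM in the other sort. A count was found there in 8 of 26, 14 of 18, 3 of 8 and 12 of 19 cells in this order. The share of tdTomato+EGFP+ cells with a count thus went the other way than the level. The highest cell held 33.3%, 20.3%, 51.4% and 31.8% of the counts.

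**Figure D3:**
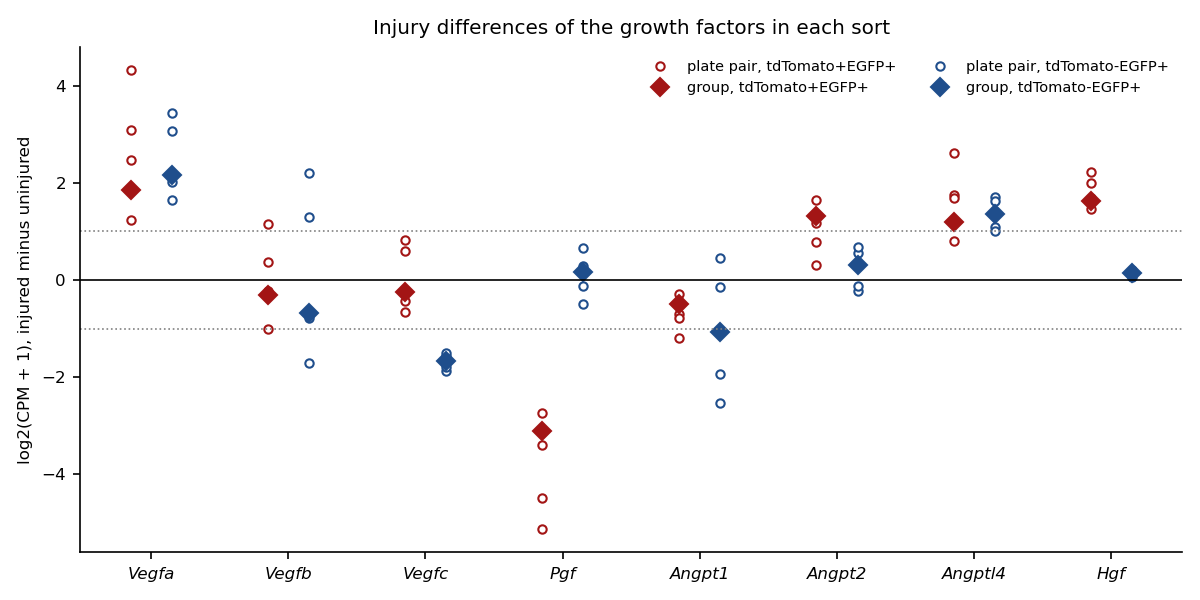
Difference between injured and uninjured cells as log2(CPM + 1) (vertical axis) for the 8 factors, red for the tdTomato+EGFP+ and blue for the tdTomato-EGFP+ sort. Diamonds are group sums, circles the 4 plate pairs and dotted lines a 2-fold difference, with *Pgf* at -3.11 in tdTomato+EGFP+ and at 0.17 in tdTomato-EGFP+ cells.

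*Hgf*, on chromosome 5 (16553495 to 16619439), stayed under 10 CPM and so entered no count. Levels were 0.60 CPM (0.38 to 0.90) and 0.07 CPM (0.01 to 0.27) in the uninjured sorts, 3.95 CPM (3.28 to 4.71) in injured tdTomato+EGFP+ cells and 0.19 CPM (0.06 to 0.45) in the other injured sort. The levels outside the injured tdTomato+EGFP+ cells rest on 23, 2 and 5 counts. Both injured tdTomato+EGFP+ plates, at 3.84 and 5.96 CPM, lay above all other plates, of which the highest had 0.75 CPM. A count was found in 24 injured tdTomato+EGFP+ cells (19.7%) and in 4, 2 and 2 cells of the other groups. After thinning it was 8 of 100 (3.52% to 15.2%), against 0.79%, 1.09% and 0.98%. Cluster 1 held 84.6% of the *Hgf* counts of injured tdTomato+EGFP+ cells, near its 81.97% of these cells, at 3.96 CPM and with 19 of 100 cells. Fibroblast-like cluster 3 was at 4.04 CPM in the same group, with a count in 4 of 18 cells.

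**Figure D4:**
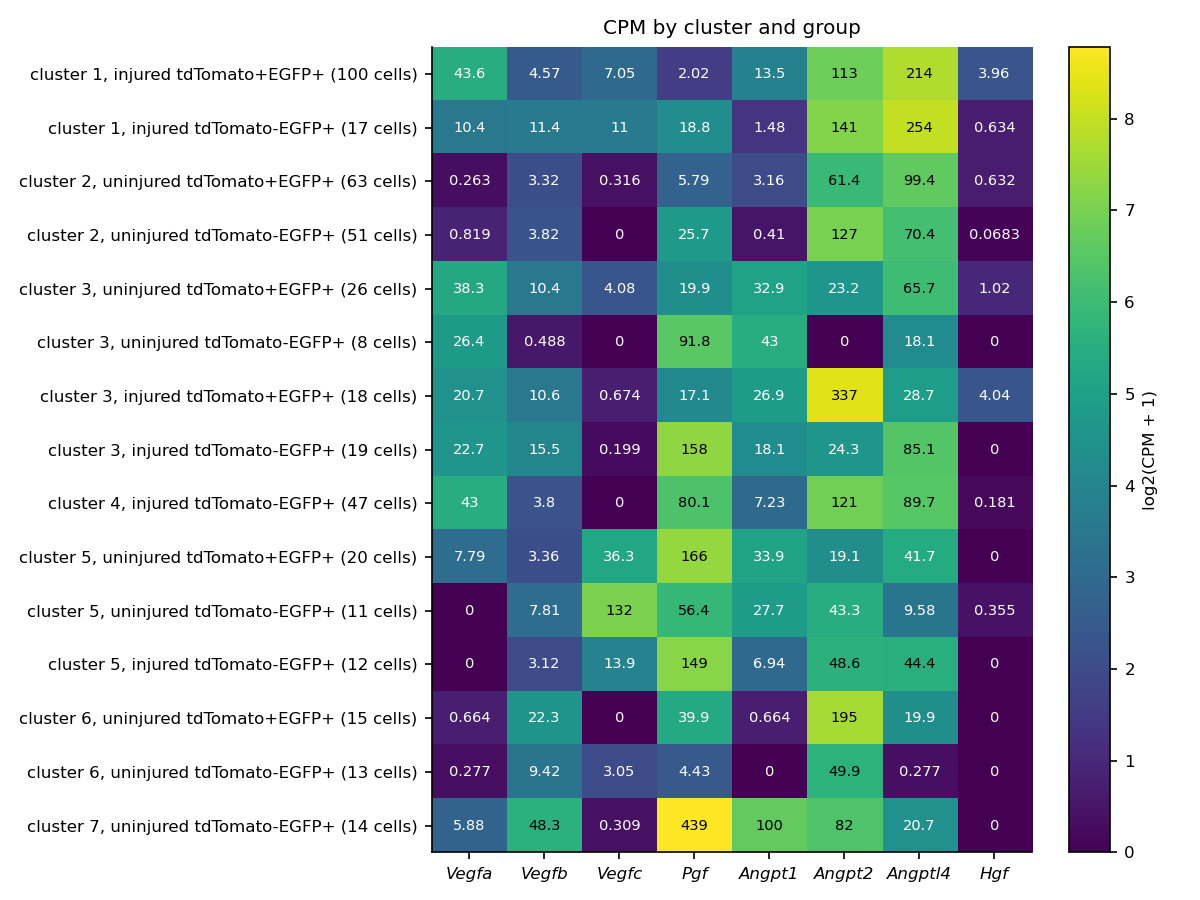
Level of the 8 factors (columns) in the cells of each cluster and group (rows), for the rows with at least 8 cells and 1000000 counts. Colours give log2(CPM + 1) and the printed values CPM, with *Pgf* highest in the uninjured tdTomato-EGFP+ cells of smooth muscle cell-like cluster 7 and *Vegfa* under 1 CPM in clusters 2 and 6.

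Counts of several factors in the same cell were set side by side after thinning. At that depth 34.6% and 31.5% of the uninjured tdTomato+EGFP+ and tdTomato-EGFP+ cells had a count of none of the 8, against 5 of 100 and 25.5% of the injured cells. A count of 3 or more factors was found in 12.6% and 8.70% before and in 39 of 100 and 20.6% after injury. *Vegfa* and *Angptl4* were found in the same cell in 32 of 100 injured tdTomato+EGFP+ cells, where their separate shares of 38 and 74 cells would give 28.1 cells if independent. In injured tdTomato-EGFP+ cells it was 10 cells against 6.32. In uninjured tdTomato+EGFP+ and tdTomato-EGFP+ cells this pair was found in 2 cells against 3.19 and 0 against 0.75. Other pairs lay further from independence. *Pgf* and *Angpt1* shared 7 cells against 2.94 and 5 against 1.60 in the uninjured sorts. *Vegfa* and *Angpt1* shared 2 against 6.08 in injured tdTomato+EGFP+ cells. No pair was tested.

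Within the injured tdTomato+EGFP+ cells 67 had a count of *Mki67*, a cycling marker, and 55 did not. *Vegfa* was at 35.2 and 50.2 CPM and *Angptl4* at 198.5 and 156.1 CPM in these. The median depth was 324666 and 197641 counts, so that shares of cells are not compared.

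Across the 8 sums of sort and plate, the levels most like that of a factor were listed as the 3 highest Pearson correlations of log2(CPM + 1) among 7015 genes with at least 50 CPM in 1 sum and a count on every plate, as a description only. For *Pgf* these were *Itga4* (r = 0.99), *Endod1* (0.99) and *Cspg4* (0.99), of which *Cspg4* encodes the pericyte proteoglycan NG2. For *Vegfa* they were *Snai1* (0.98), which encodes a transcriptional repressor of epithelial genes, *Tars* (0.97), which encodes a threonyl-tRNA synthetase, and *2810004N23Rik* (0.97). The most like gene of *Angptl4* was *Vegfa* itself (0.96), followed by *Lrwd1* and *Ube2k* (both 0.96). For *Vegfb*, *Vegfc*, *Angpt1* and *Angpt2* the highest values were 0.94 (*Nme7*), 0.93 (*Rabl6*), 0.93 (*AI597479*) and 0.94 (*Aaas*). The sums share plates, sorts and depth.

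The receptors were measured in the same cells. Of 8 receptor genes 7 reached 10 CPM, and 6 were lower after injury in tdTomato+EGFP+ cells (*Flt1*, *Kdr*, *Flt4*, *Nrp1*, *Tek* and *Tie1*) and 5 in tdTomato-EGFP+ cells (the same without *Nrp1*), with medians of -3.95 and -1.85 against -0.59 and -0.20 over all genes, of which 34.3% and 17% were lower. *Flt1* was at 968.0 and 1100 CPM in the uninjured sorts and at 25.2 and 231.3 CPM in the injured sorts, and *Tek* at 335.4, 402.0, 8.61 and 81.5 CPM. Of the 6 endothelial markers 5 were lower after injury in either sort as well, and the part of endothelial transcripts in the receptor levels was not tested. *Nrp2* passed in neither sort and *Met* stayed under 10 CPM, at 5.11 CPM or less.

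Among 7 measured genes whose products bind or cleave these factors or shape their matrix, 5 were higher after injury in tdTomato+EGFP+ cells (*Thbs1*, *Thbs2*, *Sparc*, *Ccn1* and *Ccn2*) and 4 in tdTomato-EGFP+ cells (the same without *Ccn1*), and none was lower. The medians were 1.62 and 1.23, against -0.59 and -0.20 over all genes, of which 10.8% and 9.52% were higher. *Thbs1*, which encodes the angiogenesis inhibitor thrombospondin 1, was at 19.5 and 43.7 CPM before and at 312.4 and 103.6 CPM after injury in tdTomato+EGFP+ and tdTomato-EGFP+ cells. Between the injured sorts it was 1.58 higher on the log2 scale in tdTomato+EGFP+ cells. Of 6 genes that activate HGF or block its activation, 1 reached 10 CPM for injury in tdTomato+EGFP+ and 2 in tdTomato-EGFP+ cells. *Plau*, which encodes urokinase, was higher after injury in both sorts (8.07 to 34.95 CPM and 16.9 to 56.5 CPM), against 10.8% and 9.52% of all genes. *Spint2*, which encodes an inhibitor of these proteases, was lower in tdTomato-EGFP+ cells (20.2 to 7.76 CPM), against 17% of all genes. *Hgfac*, *St14*, *Hpn* and *Spint1* stayed under 10 CPM in each group and were lower after injury in tdTomato+EGFP+ cells.

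The genes of oxygen sensing and the targets of hypoxia-inducible factors, among which *Vegfa* is counted as a textbook example, were measured beside it. Of 12 measured targets 2 were higher (*Pgk1* and *Ldha*) and 7 lower (*Bnip3*, *Ankrd37*, *Slc2a1*, *Pdk1*, *Ndrg1*, *Kdm3a* and *Ddit4*) in injured tdTomato+EGFP+ cells, with a median of -1.45, against 10.8% and 34.3% of all genes and a median of -0.59. In injured tdTomato-EGFP+ cells 2 were higher (*Adm* and *Pgk1*) and 3 lower (*Slc2a1*, *Pdk1* and *Ndrg1*), with a median of -0.49, against 9.52% and 17% of all genes and a median of -0.20. *Slc2a1*, which encodes the glucose transporter GLUT1 and is also a marker of the endothelial barrier, was at 1324 and 1373 CPM before and at 105.6 and 527.3 CPM after injury. *Hif1a* was at 29.5 and 45.3 CPM before and at 89.4 and 88.6 CPM after injury, past 2-fold in tdTomato+EGFP+ cells with a log2 difference of 1.57 and at 0.95 in tdTomato-EGFP+ cells. *Epas1*, which encodes HIF-2α, was at 1536 and 138.6 CPM in tdTomato+EGFP+ cells before and after injury, against 1581 and 1165 CPM in the other sort. Of the 8 oxygen sensing genes 6 reached 10 CPM for injury in tdTomato+EGFP+ cells, with 1 higher (*Hif1a*) and 3 lower (*Epas1*, *Egln1* and *Vhl*). For tdTomato-EGFP+ cells it was 7, with 2 higher (*Egln2* and *Egln3*) and 0 lower. The medians were -1.11 and -0.18, and the shares over all genes are those given above.

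Among further targets of the PPAR receptors, to which *Angptl4* responds in other tissues, *Plin2*, which encodes a lipid droplet protein, was higher in injured tdTomato+EGFP+ cells (242.1 to 661.4 CPM). *Cpt1a*, which encodes an enzyme of fatty acid import into mitochondria, was lower there (131.4 to 41.4 CPM), and *Pdk4*, which encodes a pyruvate dehydrogenase kinase, was lower in injured tdTomato-EGFP+ cells (17.8 to 4.17 CPM). Of 8 other ligands of the angiopoietin-like, angiopoietin, VEGF and HGF families, 4 reached 10 CPM for injury in each sort. In tdTomato+EGFP+ cells *Angptl1* was lower after injury (31.3 to 6.91 CPM) and none was higher, against 34.3% and 10.8% of all genes. In tdTomato-EGFP+ cells *Angptl2* was higher after injury (212.6 to 566.4 CPM) and *Angpt4* lower (13.8 to 1.87 CPM), against 9.52% and 17% of all genes. *Angptl7* was at 35.6 and 126.3 CPM in tdTomato+EGFP+ cells before and after injury, against 1.93 and 4.80 CPM in the other sort, with signs that were not the same on all plates.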

How the data were processed

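Smart-seq3 libraries of single EGFP+ cells of mouse spinal cord were sequenced, and the authors deposited 1 table of counts per gene and cell. The submitters' processing notes name the mm10 build. The aligner, the counter, the annotation and whether reads or unique molecules were counted are not given in the sources used here. Columns of 503 labelled cells were used and 1465 other cell columns were not. Spike-in rows (92, 0.0314% of counts) were kept out of totals.

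Cells needed at least 200 genes and under 20% mitochondrial counts (502 cells), as in the study. The study also removed cells by *Pecam1*, *Gfap* and *Ptprc* but gives no limits. Here 34 cells with a *Pecam1* value over 1 on the natural-log scale of depth-normalised counts and above that of *Pdgfrb* were removed, and 0 with *Gfap* or *Ptprc* over 1. The upper feature limit of the study was not applied, and no doublet caller was run. Depth was 575 to 870504 counts per cell in uninjured tdTomato+EGFP+, 233 to 801455 in uninjured tdTomato-EGFP+, 235 to 686905 in injured tdTomato+EGFP+ and 18286 to 754554 in injured tdTomato-EGFP+ cells. No column was a copy of another.

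Counts were summed per group, and differences were taken as log2(CPM + 1) with a pseudocount of 1 CPM. The labels name no animal, so each group is 1 sample, and the test over cells used in the study was not run. Intervals are 95% exact Poisson or exact binomial (Clopper-Pearson) and cover counting error only. A call needed 2-fold, 10 CPM in the higher group and the same sign on each plate or plate pair. For the difference between the injury differences, any group could reach 10 CPM. Clusters were made with Seurat 5.3.0 (R 4.3.3) without the 8 factors and the pathway genes. Python 3.11.15, numpy 2.4.6, scipy 1.17.1 and pandas 2.3.3 served for the rest, and the calling of differences was tested on simulated data. The simulated counts had counting error only, without spread between cells or plates. They cannot show how often such spread leads to a call in these data. TMM (edgeR 4.0.16) and DESeq2 1.42.0 size factors, other pseudocounts and filters, other averages, other cell filters, a lower clustering resolution, each plate left out and each highest cell left out were the alternatives.

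All 8 factors were named, with fixed lists of receptors, other ligands, activators, binders, oxygen sensing genes, HIF and PPAR targets and cell markers. The factors and the lists were chosen with earlier results of these data known. The list of PPAR targets is described by single genes, since not all of its results are reported here.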

Additional observations from a re-analysis of the deposited data

Results flagged for a closer look

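The 34 cells removed for *Pecam1*, of which 32 were uninjured, enter no comparison. In their 8687602 counts 3 factors had an interval, for counting error only, that lay wholly above the level of the uninjured cells kept. *Angpt1* and *Angpt2* were close to that level, at 20.7 against 20.5 CPM and 71.3 against 70.7 CPM. *Vegfc* was at 83.8 CPM (95% exact Poisson interval 77.8 to 90.1) against 10.2 CPM, with a count in 5 cells, of which 1 held 52.1% of the counts. *Pgf* was at 153.8 CPM (145.6 to 162.3) against 58.6 CPM, with a count in 7 cells, of which 1 held 64.5%. *Vegfb* was at 14.04 CPM (11.7 to 16.8) against 9.05 CPM, with a count in 10 cells, of which 1 held 45.1%. These differences were not tested. *Vegfa* was at 0.46 CPM in the removed cells, from 1 cell, against 8.06 CPM.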

How the results depend on the processing

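Of 66 recomputed counts of factors past 2-fold, 48 stayed within 1.5 times the reported count and 18 did not. All those for the injury differences within a sort stayed, but the factors counted were not always the same. With endothelial-marker cells left out, a setting that also changed which cell kinds were compared, *Vegfa* no longer passed in either sort (0.19 and 0.68). The sign of *Vegfc* turned in tdTomato-EGFP+ cells (1.66). In this setting *Angpt1* passed in tdTomato+EGFP+ cells (-1.42) and *Angpt2* in tdTomato-EGFP+ cells (1.38). Between the uninjured sorts the count of 0 became 1 with CPM averaged over cells, with endothelial-marker cells left out and with each highest cell left out, 5 without plate 209 and 3 without plate 213. Between the injured sorts the count of 1 became 4 with TMM and with DESeq2 size factors, 3 with the mean of the plates and without plate 211, and 2 with no minimum CPM, with CPM averaged over cells and with each highest cell left out. For the difference between the injury differences the count of 2 became 1 with a pseudocount of 10 CPM, with CPM averaged over cells, with no cell removed for *Pecam1* and with each highest cell left out, 0 with endothelial-marker cells left out and 5 without plate 213. A plate left out also leaves fewer plate values that must share a sign. The cause of the other changes was not tested.

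Of the recomputed values of called differences, 2 changed sign. Both were of *Vegfc* with endothelial-marker cells left out, at 1.66 for injury in tdTomato-EGFP+ cells and at -1.08 for the difference between the injury differences. *Pgf* between the injured sorts was called in 12 of 12 settings, *Pgf* for injury in tdTomato+EGFP+ and *Angptl4* for injury in tdTomato-EGFP+ cells each in 14 of 14, *Vegfc* for injury in tdTomato-EGFP+ cells in 11 of 14 and *Vegfc* for the difference between the injury differences in 9 of 14. No paired analysis was possible because the results come from no test and the replicate numbers only name cells. Sorts were instead compared within each plate. With 1 sample per group, neither animal-to-animal spread nor a plate effect on injury can be measured here.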

Other observations

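Injured tdTomato-EGFP+ cells were also divided by *Mki67*, with 36 cells that had a count and 67 that had none (median depth 229367 and 195665 counts). *Vegfa* was at 8.21 CPM in the cells with *Mki67* and at 36.2 CPM in those without. *Pgf* was at 64.3 and 108.1 CPM and *Angptl4* at 172.9 and 72.9 CPM in the same order. The shares of cells with a *Vegfa* count, without thinning, were close to each other, at 36.1% and 34.3%. For *Pgf* they were 55.6% and 47.8%, and for *Angptl4* 58.3% and 44.8%. The highest cell held 28.3% of the *Vegfa* counts of the whole group, so the *Vegfa* levels lean on few cells. These differences were not tested.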
